A study of Homo sapiens with 16 samples.

Results

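Homologous recombination copies the intact sister chromatid to mend a broken chromosome, and the Fanconi anemia pathway removes links that join the strands of the double helix. The genes described here were 46 members of these pathways and of the break response around them, taken from the table by symbol. The table of read counts held 45 of them among 12676 genes, and FANCF, a subunit of the Fanconi core complex, had no row. RNA-seq was performed on H1299, a line from a human non-small cell lung carcinoma, and the question was which genes change when YEATS2 is depleted. YEATS2 is a subunit of the ATAC histone acetyltransferase complex with a YEATS domain that reads acylated histones. Both groups were infected with lentivirus carrying a pLKO shRNA construct and selected with puromycin. The 2 control libraries, called shCtrl here, carried a non-targeting shRNA (shNT), and the 2 knockdown libraries, called shYEATS2, carried an shRNA against YEATS2 that the labels do not specify further. All 4 libraries thus come from selected cells of 1 line, which limits them as a model, and the study describes the duplicates as independent biological replicates.

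Both pathways work in order. A break is first resected to single-stranded DNA by MRE11, RAD50 and NBN with CtIP, then BRCA1, PALB2 and BRCA2 prepare the single strand to pair with the homologous copy. In the Fanconi pathway a core complex with its conjugating enzyme attaches ubiquitin to FANCD2 and FANCI, which hands the lesion to nucleases and to recombination. The kinases ATM and ATR and the proteins that read ubiquitin around a break decide whether the cell waits and which repair route it takes. Many of these genes are transcribed mainly in S and G2 phase, when a sister chromatid is at hand.

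The libraries held 34718921 to 39417787 reads in the listed genes. Values below are reads scaled by TMM to the mean size of the 4 libraries ("scaled reads"), differences are log2 ratios of shYEATS2 over shCtrl with a standard error (SE), and a gene is called lower or higher where the false discovery rate (FDR) of edgeR's quasi-likelihood test, adjusted over all 12676 genes, is under 0.01. YEATS2 itself had 4482 and 4104 scaled reads in the control libraries and 665 and 673 in the knockdown libraries, a log2 ratio of -2.68 (SE 0.10, FDR 0.000583). The knockdown libraries were thus alike in YEATS2. The marker check of the line was mixed. KRT8 and KRT18 had rows but EPCAM, CDH1 and KRT19 had none. VIM was abundant at 78728 to 114660 scaled reads, while the mesenchymal markers COL1A1, COL1A2, DCN and LUM had no row. No lung alveolar, blood or endothelial marker of the 13 looked for had a row. Of the 7 epithelial and mesenchymal markers with a row, 2 were higher in shYEATS2, the keratin KRT7 (90 and 61 scaled reads against 236 and 207, log2 ratio 1.55, FDR 0.00349) and the fibronectin gene FN1 (1705 and 2152 against 4649 and 5990, 1.46, FDR 0.00141). KRT7 missed the threshold without shCtrl replicate 2 (1.29, FDR 0.0113). KRT18 (-0.81, FDR 0.0283), CDH2 (0.36, FDR 0.0261), VIM (-0.37, FDR 0.0390), KRT8 (0.31, FDR 0.0958) and ZEB1 (-0.15, FDR 0.240) did not pass. The summed scaled reads were 29160 to 30360 in shCtrl and 19509 to 28654 in shYEATS2 for the epithelial markers, and 117190 to 121203 and 89455 to 105708 for the mesenchymal ones. Their part in the results on the members was not tested.

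In the YEATS2 knockdown many recombination and Fanconi genes were lower, and no member passed the threshold as higher. Of the 45 members in the table, 22 (48.9%) were called lower and 0 higher, while 12.5% of all genes tested were called lower and 12.9% higher. The remaining 23 members did not pass, although 39 of the 45 (86.7%) had an unadjusted p under 0.05, as did 56.5% of all genes. Of these 23, DESeq2 and exactTest both called BRCA1, BRCA2, XRCC2, XRCC3, NBN, RBBP8, FANCM and ATRIP lower. The exactTest function, which the study also used, called CLSPN lower as well. Its calls were made here with TMM scaling, and its totals over all genes differ from those that the study reported. The median log2 ratio of the members was -0.87, against -0.0019 over all genes. Both knockdown libraries lay below both control libraries in 39 members, a pattern seen in 39.8% of all genes, and above both in 2 members, ATM and TP53BP1, a pattern seen in 39.7% of all genes. A total of 18 members (40%) had at most 50% of the control level by the fitted ratio, 14 of them called, against 5.03% of all genes. The log2 ratios ran from -1.78 for FANCE to 0.42 for TP53BP1. In bulk RNA, fewer cells of a kind and less RNA per cell cannot be told apart.

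**Figure D1:**
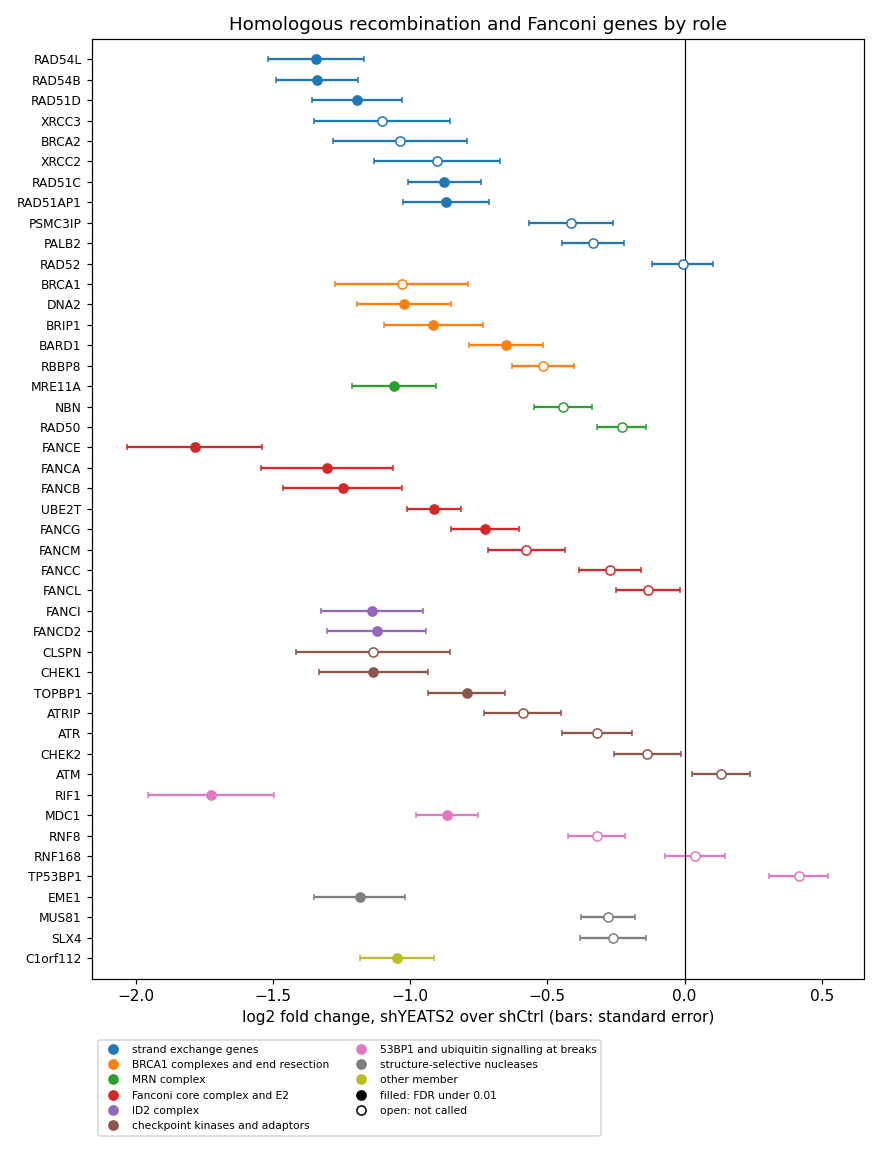
Log2 ratio of shYEATS2 over shCtrl for the 45 members in the table, grouped by role, with bars for the standard error and filled points for members with an FDR under 0.01. The 22 filled points all lie left of zero, between -1.78 (FANCE) and -0.65 (BARD1), and 3 members, ATM, RNF168 and TP53BP1, lie right of it.

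Before the roles are taken in turn, 3 stretches of promoter sequence are shown because each member shares them with a gene that starts close by on the other strand, whose values are given beside the member's further on. Each stretch is the reference DNA (GRCh37) between the start of the member and the start of its neighbour, read 5′ to 3′ on the member's strand, and capitals mark the letters CCAAT or their reverse complement ATTGG.
BRCA1 and NBR2, chr17:41277382-41277567, minus strand: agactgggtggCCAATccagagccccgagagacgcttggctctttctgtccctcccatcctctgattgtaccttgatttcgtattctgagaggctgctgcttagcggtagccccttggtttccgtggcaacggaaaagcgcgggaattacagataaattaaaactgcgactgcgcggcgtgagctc
MRE11A and ANKRD49, chr11:94227011-94227149, minus strand: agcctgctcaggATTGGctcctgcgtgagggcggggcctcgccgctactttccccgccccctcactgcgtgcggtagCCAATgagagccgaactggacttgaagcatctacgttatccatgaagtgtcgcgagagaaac
EME1 and MRPL27, chr17:48450546-48450589, plus strand: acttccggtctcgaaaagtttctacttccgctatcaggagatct
The stretches are 186, 139 and 44 bases long, so each pair has its starts within the space of a single promoter. CCAAT occurred 1 time between BRCA1 and NBR2, 2 times between MRE11A and ANKRD49 and 0 times between EME1 and MRPL27.

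The strand exchange group holds the proteins that prepare or drive strand invasion, and 5 of its 11 members were lower. RAD54L, the motor that remodels chromatin during strand exchange, had 2122 and 1847 scaled reads in shCtrl and 920 and 648 in shYEATS2 (log2 ratio -1.34, SE 0.18, FDR 0.00202). Its relative RAD54B had 547 and 565 in shCtrl and 241 and 199 in shYEATS2 (-1.34, SE 0.15, FDR 0.00136). In both genes the knockdown libraries lay far below the controls, and the fitted ratio left 39.5% of the control level. Of the paralogs that act before strand invasion, RAD51D went from 303 and 286 to 125 and 133 (-1.19, SE 0.16, FDR 0.00234). RAD51C went from 1978 and 1966 to 1210 and 942 (-0.88, SE 0.13, FDR 0.00330). RAD51AP1, which stimulates joint formation, went from 2593 and 2460 to 1609 and 1160 (-0.87, SE 0.16, FDR 0.00559). The calls of RAD51D (FDR 0.0112) and RAD51AP1 (FDR 0.0116) were lost when shCtrl replicate 1 was left out, with log2 ratios of -1.16 and -0.83.

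The other paralogs and BRCA2 had ratios as low but did not pass. XRCC3 had 4325 and 3905 scaled reads in shCtrl and 2457 and 1376 in shYEATS2 (log2 ratio -1.10, SE 0.25, FDR 0.0115), XRCC2 had 1424 and 1279 against 908 and 539 (-0.90, SE 0.23, FDR 0.0178). BRCA2, which acts on resected DNA, had 1412 and 1314 against 850 and 480 (-1.04, SE 0.24, FDR 0.0138). In all 3 genes both knockdown libraries lay below both controls, as in 39.8% of all genes, and shYEATS2 replicate 2 lay at 0.56 to 0.59 of replicate 1. Leaving out a knockdown library removes this spread from the test, so only the log2 ratios of such fits are given for these 3 genes. Further on, FDRs of such fits are given only for some genes that lost a call. BRCA2 gave -0.68 without shYEATS2 replicate 2 and -1.50 without replicate 1, and XRCC3 gave -0.74 and -1.58. XRCC2 ran from -1.32 to -0.57 with a library left out. PALB2, the bridge between BRCA1 and BRCA2, had 768 and 826 against 655 and 609 (-0.33, FDR 0.0480), and PSMC3IP, which promotes strand exchange, gave -0.41 (FDR 0.0623). RAD52, an annealing protein that works beside the BRCA2 route, had overlapping groups of 726 and 673 against 702 and 690 (-0.01, SE 0.11, FDR 0.963). RAD54L to RAD52, a ratio within each library, was 2.92 and 2.75 in shCtrl and 1.31 and 0.939 in shYEATS2.

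Among the BRCA1 partners and the enzymes of end resection, 3 of 5 were lower. DNA2, the nuclease of long-range resection, went from 1291 and 1225 scaled reads to 727 and 514 (log2 ratio -1.02, SE 0.17, FDR 0.00427). BRIP1, the helicase also known as FANCJ, went from 1467 and 1380 to 898 and 612 (-0.92, SE 0.18, FDR 0.00738). BARD1, the obligate partner of BRCA1 in its ubiquitin ligase, went from 1329 and 1309 to 940 and 742 (-0.65, SE 0.14, FDR 0.00895). The last pair of calls were the least firm among the members. Without shCtrl replicate 1 the FDR was 0.0313 for BARD1 and 0.0164 for BRIP1, with log2 ratios of -0.64 and -0.88, without shCtrl replicate 2 it was 0.0262 and 0.0102 (-0.66 and -0.96), and without shYEATS2 replicate 2 BARD1 gave -0.49 (FDR 0.0183). BRCA1 had 2866 and 2653 in shCtrl and 1731 and 973 in shYEATS2 (-1.03, SE 0.24, FDR 0.0139), a ratio as low as that of DNA2 with a wider spread between the knockdown libraries. Its log2 ratio was -1.50 without shYEATS2 replicate 1 and -0.67 without replicate 2. RBBP8, which encodes the resection factor CtIP, had 4302 and 3926 against 3091 and 2660 (-0.52, SE 0.11, FDR 0.0105), just outside the threshold. With a library left out it ran from -0.63 to -0.41.

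Of the MRN complex, which senses and tethers broken ends, 1 of 3 subunits was lower. MRE11A, its nuclease, went from 1679 and 1615 scaled reads to 908 and 674 (log2 ratio -1.06, SE 0.15, FDR 0.00266). RAD50, the tethering ATPase, had 4180 and 4105 against 3512 and 3553 (-0.23, SE 0.09, FDR 0.0703), and NBN, the subunit that recruits ATM, had 5246 and 4556 against 3686 and 3521 (-0.44, SE 0.11, FDR 0.0143). Neither passed. In both genes the 2 knockdown libraries lay below both controls, as in 39.8% of all genes. NBN passed with DESeq2 (FDR 0.00279) and exactTest (FDR 0.00192) and in none of the 4 fits with a library left out. MRE11A reads were 0.402 and 0.393 of RAD50 reads in shCtrl and 0.259 and 0.190 in shYEATS2. This ratio, like the other within-library ratios given here, was taken after the values were seen, and with 2 libraries against 2 an exact two-sided permutation test cannot go below 0.333.

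Of the Fanconi core complex and its conjugating enzyme, 5 of the 8 genes in the table were lower. FANCE, the subunit that docks FANCD2 on the core complex, had the lowest ratio of the members, from 1219 and 1222 scaled reads in shCtrl to 455 and 256 in shYEATS2 (log2 ratio -1.78, SE 0.25, FDR 0.00237). Its control libraries were all but equal, and its knockdown libraries held 29.1% of the control mean. FANCA, which forms a subcomplex with FANCG, went from 3337 and 3424 to 1754 and 990 (-1.30, SE 0.24, FDR 0.00596), and FANCG from 3359 and 3073 to 2136 and 1751 (-0.73, SE 0.12, FDR 0.00457). FANCB, a partner of the ligase subunit FANCL on the X chromosome, went from 520 and 431 to 241 and 161 (-1.25, SE 0.22, FDR 0.00491). UBE2T, the E2 enzyme that supplies the ubiquitin, went from 1881 and 2002 to 1058 and 1003 (-0.91, SE 0.10, FDR 0.00130) and had nearly equal knockdown libraries. Without shCtrl replicate 1, FANCB gave -1.11 (FDR 0.0143) and FANCG -0.67 (FDR 0.0158).

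The remaining core subunits did not pass. FANCL, the ubiquitin ligase itself, had 1162 and 1056 against 1078 and 944 (log2 ratio -0.13, SE 0.12, FDR 0.375), with overlapping groups. FANCC, which pairs with FANCE, had 1475 and 1472 against 1320 and 1122 (-0.27, SE 0.11, FDR 0.0865). FANCM, the translocase that anchors the complex on DNA, had 736 and 655 against 510 and 423 (-0.58, SE 0.14, FDR 0.0158). With a library left out it ran from -0.71 to -0.45. Genes of the same complex thus gave log2 ratios from -1.78 to -0.13. FANCE reads were 1.05 and 1.16 times those of FANCL in shCtrl and 0.422 and 0.271 times in shYEATS2.

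Both subunits of the ID2 clamp, the substrate of the core complex, were lower by like amounts. FANCD2 went from 3329 and 3438 scaled reads to 1859 and 1252 (log2 ratio -1.12, SE 0.18, FDR 0.00377) and FANCI from 4987 and 4555 to 2600 and 1734 (-1.14, SE 0.19, FDR 0.00399). In each gene shYEATS2 replicate 2 held 0.67 of the reads of replicate 1. FANCD2 has pseudogene copies in the genome that may take or give reads.

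Of the 7 checkpoint genes 2 (28.6%) were lower, as were 12.5% of all genes tested. Both belong to the ATR branch, like most of the 7. CHEK1, the kinase that ATR activates at stalled forks, went from 4217 and 3964 scaled reads to 2275 and 1455 (log2 ratio -1.13, SE 0.20, FDR 0.00498), and TOPBP1, the activator of ATR, from 8982 and 8526 to 5739 and 4360 (-0.79, SE 0.14, FDR 0.00519). Without shCtrl replicate 1, TOPBP1 missed the threshold (-0.76, FDR 0.0139). CLSPN, the mediator that presents CHEK1 to ATR, had 3822 and 3188 against 2102 and 1092 (-1.14, SE 0.28, FDR 0.0161). Its knockdown libraries lay farthest apart of all members, with replicate 2 at 0.52 of replicate 1. With a library left out its log2 ratio ran from -1.68 to -0.74. ATRIP, the partner that brings ATR to single-stranded DNA, had 661 and 676 against 491 and 397 (-0.59, SE 0.14, FDR 0.0144). It ran from -0.75 to -0.44 with a library left out, while ATR itself gave -0.32 (FDR 0.0776). On the ATM side, ATM had 3018 and 3437 against 3438 and 3635 (0.13, SE 0.11, FDR 0.327) and its target kinase CHEK2 had 1092 and 1127 against 1102 and 918 (-0.14, SE 0.12, FDR 0.385). The CHEK1 to CHEK2 ratio was 3.86 and 3.52 in shCtrl and 2.06 and 1.59 in shYEATS2.

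At the chromatin around a break, MDC1 and RIF1 were lower while TP53BP1 was not. MDC1, the scaffold that binds phosphorylated H2AX, was the member with the most reads and went from 14281 and 15056 scaled reads to 8705 and 7396 (log2 ratio -0.87, SE 0.11, FDR 0.00195). RIF1, the effector that 53BP1 recruits to hold back resection, went from 7604 and 6933 to 2763 and 1635 (-1.73, SE 0.23, FDR 0.00214), the second lowest ratio after FANCE. TP53BP1, which encodes 53BP1, had 5036 and 4938 in shCtrl and 6128 and 7179 in shYEATS2 (0.42, SE 0.11, FDR 0.0191), with both knockdown libraries above both controls, as in 39.7% of all genes. It passed as higher with DESeq2 (FDR 0.00528) and with exactTest (FDR 0.00420), and its log2 ratio ran from 0.30 to 0.53 with a library left out. RIF1 reads were 1.51 and 1.40 times those of TP53BP1 in shCtrl and 0.451 and 0.228 times in shYEATS2. These ratios do not allow for the length of the canonical transcript, 14662 bases for RIF1 and 10369 for TP53BP1. Corrected for that length and for library size, RIF1 and TP53BP1 were nearly level in shCtrl, at 13.6 and 13.2. In shYEATS2 RIF1 stood at 4.11 and TP53BP1 at 17.6. The ubiquitin ligases that lie between MDC1 and 53BP1 did not pass, with RNF8 at -0.32 (FDR 0.0406) and RNF168 at 0.04 (FDR 0.793, overlapping groups).

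Of the structure-selective nucleases, EME1, the regulatory partner of MUS81, went from 1656 and 1774 scaled reads to 880 and 630 (log2 ratio -1.18, SE 0.16, FDR 0.00244). MUS81, the catalytic subunit, had 1307 and 1255 against 1057 and 1056 (-0.28, SE 0.10, FDR 0.0535), and the scaffold SLX4 had 911 and 813 against 752 and 687 (-0.26, SE 0.12, FDR 0.110). EME1 reads were 1.27 and 1.41 times those of MUS81 in shCtrl and 0.833 and 0.597 times in shYEATS2. C1orf112, also called FIRRM, a partner of FIGNL1, went from 1109 and 938 to 525 and 467 (-1.05, SE 0.13, FDR 0.00192).

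**Figure D2:**
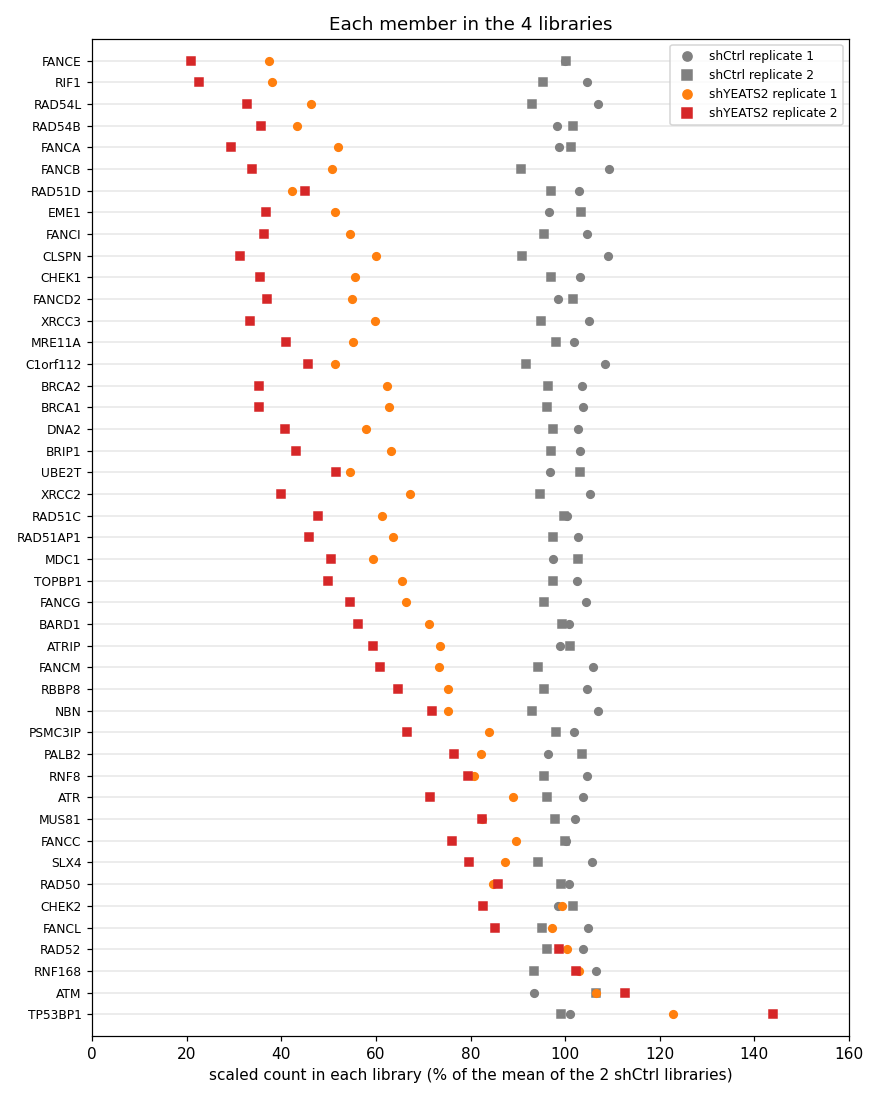
Scaled reads of each of the 45 members in each of the 4 libraries as a percentage of the mean of the 2 shCtrl libraries, ordered by the log2 ratio of the fit. The control libraries lie close together near 100 in each row, FANCE and RIF1 lie lowest in shYEATS2, and replicate 2 of shYEATS2 lies left of replicate 1 in 41 rows.

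The knockdown libraries were not alike in these genes. shYEATS2 replicate 2 was below replicate 1 in 41 of the 45 members and in 21 of the 22 called lower, the exception being RAD51D at 1.06. The same held in 6419 of all 12676 genes and in 1343 of the 1581 genes called lower. The median of replicate 2 over replicate 1 was 0.72 over members called lower and 0.86 over those not called, against 1.00 over all genes and 0.87 over all genes called lower. YEATS2 itself was at 1.01. In shCtrl, replicate 2 was below replicate 1 in 34 of 45 members and in 6323 of all 12676 genes. S phase markers, a list that shares no gene with the members, had a median of 0.61 and replicate 2 lower in 16 of 16, while G2 and M phase markers were at 0.97 and lower in 11 of 18, and end joining genes were at 0.94.

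**Figure D3:**
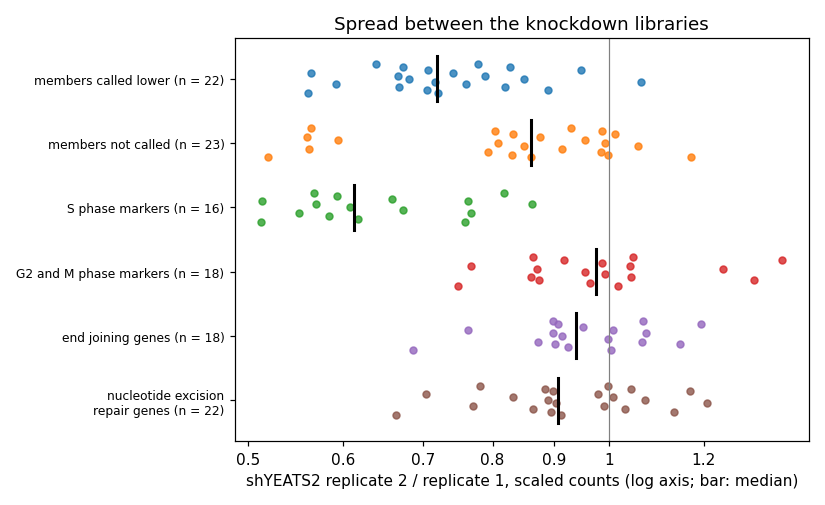
Scaled reads in shYEATS2 replicate 2 divided by those in replicate 1, on a log axis, for each gene of 6 lists, with black bars for the medians. Members called lower (median 0.72) and S phase markers (median 0.61) lie left of 1 apart from RAD51D at 1.06, while the medians of G2 and M phase markers (0.97), end joining genes (0.94) and nucleotide excision repair genes (0.91) lie nearer to 1.

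Markers of dividing cells fell in the same libraries. Of 16 S phase markers, 12 were lower and 0 higher, with a median log2 ratio of -1.24. RRM2, the ribonucleotide reductase subunit, and CCNE2, cyclin E2, had the largest falls at -1.74 each. All 18 G2 and M phase markers were lower, with a median of -1.34, led by CDC20 (-1.62), the activator of the anaphase-promoting complex, and MKI67 (-1.51), the antigen used to score dividing cells. The summed scaled reads of the S phase list were 125974 to 133116 in shCtrl and 42521 to 66147 in shYEATS2, and those of the G2 and M list were 193406 to 213013 and 80499 to 82415. No marker of either list was without a row. The summed reads of the 22 members called lower were 67989 to 69789 in shCtrl and 28711 to 38567 in shYEATS2. With a library left out, 10 to 16 of the S phase and 18 of the 18 G2 and M phase markers were lower. By flow cytometry, the study reported an arrest in G1 after YEATS2 was knocked down. The part of cell cycle composition in the change of the members was not tested here.

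The wider pathways were read from lists written from pathway knowledge. Of 36 other recombination genes in the table, 15 were lower and 0 higher (median log2 ratio -0.49), led by BLM, the helicase of Bloom syndrome (-1.45, FDR 0.00200), and ATAD5, which unloads PCNA (-1.43, FDR 0.00377). Of 17 other Fanconi genes, 7 were lower and 1 higher (median -0.47), with the largest falls in DCLRE1A, a crosslink nuclease (-1.44), and UHRF1 (-1.39), and a rise in REV3L, the catalytic subunit of polymerase zeta (0.65, FDR 0.00259). Of 31 other break signalling genes, 12 were lower and 0 higher (median -0.39), with HELLS, a chromatin remodeller, at -1.56 and FAM35A, the shieldin subunit SHLD2, at -1.22. In fits without a control library the spread came from the knockdown pair alone. The counts of lower genes changed with the library left out. With a library left out they were 10 to 19 for recombination, 5 to 9 for Fanconi and 4 to 11 for break signalling, lowest in each list without shCtrl replicate 1, where UHRF1 (-1.24, FDR 0.0103) and REV3L (0.68, FDR 0.0124) were lost. REV3L was also lost without shCtrl replicate 2 (0.63, FDR 0.0164).

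Lists of other repair pathways had medians from -0.43 to -0.09, of which end joining and base excision repair were close to the other recombination, Fanconi and break signalling genes. Of 18 end joining genes, 6 were lower and 1 higher (median -0.43), with falls in POLQ, the polymerase of theta-mediated joining (-0.94), and XRCC5, which encodes Ku80 (-0.70), and a rise in LIG4, the ligase of the pathway (0.68, FDR 0.00595). Of 19 base excision repair genes, 6 were lower and 1 higher (median -0.43), with NEIL3 at -1.21, MBD4 at -0.74 and TDG, a thymine glycosylase, at 0.71. The end joining and base excision lists share genes such as XRCC1 and PARP1. Of 22 nucleotide excision repair genes, 3 were lower and 1 higher (median -0.09), with DDB2 at -0.82, XPC at -0.68 and GTF2H1, a TFIIH subunit, at 0.68. With a library left out, the lower genes numbered 1 to 8, 2 to 9 and 0 to 5 in the end joining, base excision and nucleotide excision lists. Without shCtrl replicate 1 the calls of XRCC5 (-0.64, FDR 0.0173), LIG4 (0.72, FDR 0.0226), MBD4 (-0.68, FDR 0.0179), XPC (-0.77, FDR 0.0110) and GTF2H1 (0.68, FDR 0.0121) were lost. Those of LIG4 (0.63, FDR 0.0334), TDG (0.66, FDR 0.0132), DDB2 (-0.78, FDR 0.0119), XPC (-0.57, FDR 0.0364) and GTF2H1 (0.68, FDR 0.0114) were lost without shCtrl replicate 2, and LIG4 (0.57, FDR 0.0186) and XPC (-0.57, FDR 0.0188) also without shYEATS2 replicate 2. Whether the lists differed from the members was not tested.

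Several members start next to another gene on the opposite strand. Starts of the canonical transcripts in GENCODE lay within 1000 bases in 11 pairs, examined after the members' values were seen. Of the 11 members 6 were lower, and of the 11 neighbours 0 were lower, 2 were higher and 9 did not pass. Counts this small over 11 neighbours are close to the 12.5% lower and 12.9% higher among all genes, and no difference between a member and its neighbour was tested. BRCA1 starts 187 bases from NBR2, a long noncoding RNA, and the sequence between the starts is shown above. NBR2 rose from 158 and 177 scaled reads to 291 and 358 (log2 ratio 0.95, SE 0.18, FDR 0.00602), and the BRCA1 to NBR2 ratio was 18.1 and 15.0 in shCtrl and 5.95 and 2.72 in shYEATS2. FANCB starts 352 bases from MOSPD2, which rose from 944 and 1057 to 1461 and 1519 (0.58, SE 0.11, FDR 0.00603). Both rises missed the threshold in 3 of the 4 fits with a library left out. NBR2 gave 0.87 (FDR 0.0322) without shCtrl replicate 1, 1.04 (FDR 0.0161) without shCtrl replicate 2 and 0.80 (FDR 0.0197) without shYEATS2 replicate 2, and MOSPD2 gave 0.49 (FDR 0.0510), 0.66 (FDR 0.0162) and 0.55 (FDR 0.0154) in the same fits.

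The closest pair was EME1 and MRPL27, a mitochondrial ribosomal protein gene, with starts 45 bases apart. MRPL27 had 1804 and 1832 scaled reads in shCtrl and 1540 and 1604 in shYEATS2 (log2 ratio -0.21, FDR 0.0972), beside -1.18 for EME1. MRE11A and ANKRD49 start 140 bases apart, and ANKRD49 had 392 and 389 against 362 and 294 (-0.25, FDR 0.203). METTL18, 133 bases from C1orf112, gave -0.24 (FDR 0.257), and C12orf4, 421 bases from RAD51AP1, gave -0.01 (FDR 0.958). Where the member did not pass, the neighbour did not either, as for PALB2 with DCTN5 (-0.25), CHEK2 with HSCB (-0.02), ATM with NPAT (-0.08) and XRCC3 with ZFYVE21 (0.20), with BRCA1 as the exception.

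**Figure D4:**
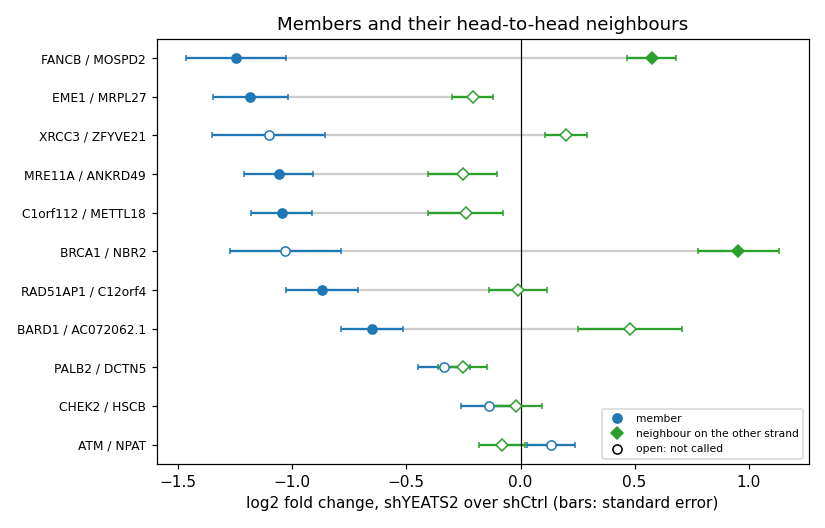
Log2 ratio of shYEATS2 over shCtrl with its standard error for the 11 members whose start lies within 1000 bases of a gene on the other strand (circles) and for those neighbours (diamonds), with open symbols where the FDR is 0.01 or more. All 8 members with a ratio under -0.6 lie left of their neighbour, and NBR2 and MOSPD2 are the filled diamonds, at 0.95 and 0.58.

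Promoter letters were counted in 300 bases around each canonical start, from 250 before it to 50 after it, on both strands. E2F factors, which switch on S phase genes, bind letters close to TTTGGCGC, TTTCGCGC or TTTCCCGC. At least 1 of these words stood in 6 of 45 member windows (13.3%) and in 4.57% of 12391 windows of genes in the table. The 6 were XRCC2, PSMC3IP, FANCC, FANCD2, TOPBP1 and CLSPN, of which only FANCD2 and TOPBP1 were called lower, so the word stood in 2 of 22 members called lower (9.09%), in 4 of 23 not called (17.4%) and in 8.01% of all table genes called lower. The last 80 bases before the start and the first 10 after it are shown for 3 of them, on the gene's strand of GRCh37, because the word lies at the start itself, and capitals mark it as the reverse complement.
FANCD2, chr3:10068041-10068130, plus strand: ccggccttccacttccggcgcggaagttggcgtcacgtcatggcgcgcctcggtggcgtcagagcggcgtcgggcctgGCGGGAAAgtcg
TOPBP1, chr3:133380776-133380865, minus strand: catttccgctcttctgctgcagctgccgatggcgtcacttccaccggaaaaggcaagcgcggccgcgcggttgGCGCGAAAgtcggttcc
CLSPN, chr1:36235570-36235659, minus strand: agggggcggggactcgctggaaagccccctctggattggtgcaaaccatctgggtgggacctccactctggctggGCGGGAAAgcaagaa
The word spans the start base in all 3 genes, with log2 ratios of -1.12, -0.79 and -1.14. TTTGAA and TTCGAA, the letters of the cell cycle homology region that serves G2 and M phase genes, stood in 7 of 45 member windows (15.6%), in 5 of the 22 called lower (22.7%), in 10.8% of all windows and in 19.6% of the 1560 windows of all genes called lower, so the members called lower were near other genes called lower. CCAAT stood in 20 of 45 (44.4%) against 36.2% of all windows. A match describes letters only, and 39 of the 45 windows held no E2F word in this form.

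Levels between genes were compared per kilobase of the canonical transcript and per 1e6 reads. In shCtrl, UBE2T stood highest at 60.6, followed by MDC1 at 57.7, XRCC3 at 43.9 and TOPBP1 at 41.7, and the low end held SLX4 at 3.23, BRCA2 at 3.12 and FANCM at 2.67. RAD51D gave 0.811, but its canonical transcript of 9966 bases may not be the one counted. UBE2T, MDC1 and TOPBP1 were called lower, whereas XRCC3, SLX4, BRCA2 and FANCM were not. Apart from RAD51D, the member called lower with the lowest level was FANCB at 4.32.

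Whether the library kit records strand is not stated, so it is not known whether reads of overlapping genes were told apart. Several members share exons with a gene on the other strand. FANCA shares 27.4% of its canonical transcript with ZNF276, which rose (log2 ratio 0.66), RAD54L shares 26.2% with LRRC41, which rose (0.60), and FANCI shares 9.68% with POLG, which rose (0.56). TP53BP1 shares 36.0% with TUBGCP4, which fell (-0.62). In these 4 pairs the member and its overlapping gene had log2 ratios of opposite sign. The calls of the overlapping genes were lost without shCtrl replicate 1 (ZNF276 0.77, LRRC41 0.55, POLG 0.57 and TUBGCP4 -0.58) and without shCtrl replicate 2 (0.56, 0.65, 0.55 and -0.66), that of ZNF276 also without shYEATS2 replicate 1 (0.52) and that of LRRC41 without shYEATS2 replicate 2 (0.47). EME1 shares 23.2% with LRRC59 (-0.28) and C1orf112 shares 29.5% with SCYL3 (0.22), neither of which passed. The overlaps of XRCC3 with KLC1 (34.2%) and of PSMC3IP with MLX (57.2%) touch members that did not pass, and ATRIP shares 31.6% with TREX1 on the same strand.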

How the data were processed

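RNA-seq read counts of H1299 cells with a control shRNA (shCtrl, 2 libraries) or a YEATS2 shRNA (shYEATS2, 2 libraries) were used, grouped by their labels. The ChIP-seq samples of the series were not analysed here. The authors counted reads per gene with HTSeq at its default parameters on hg19 and deposited the raw counts, which are whole numbers without normalization. The study names the RNA-Seq unified mapper, whereas the submitters' processing notes list TopHat2 2.0.10, Bowtie2 2.1.0 and HTSeq 0.6.1p1. The annotation used for counting is not given in the sources used here, and neither is a strand-marking library kit. In every row the library with the most reads holds over 100 (the smallest such count is 101), so genes below that were not analysed here. The log2 fold changes and p-values that the authors deposited come from their own comparison and were not used.

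A minimum of 10 reads in 2 or more libraries was set, and all 12676 genes met it. Counts were scaled by TMM (factors 0.952 and 0.967 for shCtrl, 1.04 and 1.05 for shYEATS2) and compared with the quasi-likelihood F test of edgeR 4.0.16 under R 4.3.3, with Benjamini-Hochberg adjustment over all genes at an FDR under 0.01. The biological coefficient of variation was 0.107 and log2 fold changes had a standard error of 0.12 at the median. The test was repeated with limma-trend of limma 3.58.1 (prior count 1), with DESeq2 1.42.0 and with the exactTest function, and under other scalings and filters, an FDR under 0.05, a replicate block and each library left out in turn. With a library left out, the lone library of its group was assumed to vary like the other group. Such a fit does not see the spread within the reduced group, so its calls are no check on that spread. Scripts were tested on simulated data.

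The genes named are YEATS2, every member, and the 2 largest falls and rises past the threshold in each further list. The cell type markers, neighbours and overlapping genes are named outside that rule, and the head-to-head pairs, overlaps and within-library ratios were chosen after values were seen. The members and lists were chosen with earlier results of these data known. Positions come from GENCODE v44lift37 on GRCh37, the build called hg19, to which all 45 members matched by identifier. Promoter windows were read from the GRCh37 genome around the canonical start in place of the RefSeq promoter table planned, because that table is on another build. Some results on single genes are not reported here.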

Additional observations from a re-analysis of the deposited data

How the results depend on the processing

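All 22 members called lower remained so under DESeq2, exactTest, limma-trend, DESeq2 size factors, the upper quartile, genes averaging 100 reads or more and a replicate block. The unfiltered table repeated the main fit, because every gene met the filter. An FDR under 0.05 is a looser cut of that same fit, so neither setting could lose a call. Of these 22, 20 remained under total counts, and some lost their calls without a control library or without shYEATS2 replicate 2, as given above. The number of members called lower was 20 under total counts, 30 with DESeq2, 31 with exactTest and 33 at an FDR under 0.05, and 15 to 30 with a library left out. Scaling by total counts raised the median log2 ratio of all genes from -0.0019 to 0.12 and the share of calls that were higher from 50.8% to 67.0%, and BARD1 (-0.53), BRIP1 (-0.80) and XPC (-0.56) lost their calls. The only member called higher in any fit was TP53BP1, 1 member under DESeq2, exactTest, total counts, an FDR under 0.05 and the replicate block, and the count ranged from 0 to 1 with a library left out. Over all genes, 2497 were lower and 2596 higher with exactTest, and 3011 and 3093 at an FDR under 0.05. With a library left out, 850 to 2024 genes were lower and 775 to 1971 higher. The median of the members ranged from -1.005 without shYEATS2 replicate 1 to -0.65 without replicate 2.

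The replicate numbers were shared between the groups, and over the genes the replicate deviations of the 2 groups had a correlation of 0.40. The labels give only a number and do not say whether libraries of the same number share an origin. With the replicate block, 31 members were lower and 1 was higher, and 2715 genes were lower and 2742 higher over all genes. BRCA1, BRCA2, XRCC2, XRCC3, RBBP8, NBN, FANCM, ATRIP and CLSPN, not called in the main fit, were among the 31.

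Sign changes were seen only in members near 0. RAD52 gave 0.11 under total counts, 0.012 under the upper quartile, 0.0055 with a mean count of at least 100 and, with a library left out, between -0.060 and 0.045. RNF168 ranged between -0.053 and 0.13 with a library left out. The cause was not tested. With 2 libraries in each group, differences smaller than a few standard errors (median 0.12) could not be called.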
